A study of Mus musculus with 6 samples.

Results

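The 51 G2 and mitosis genes described here were taken by symbol from a list of cyclins, kinases, checkpoint proteins, kinesins, condensins and other factors of late cell cycle, out of 19057 genes with a named probe on the arrays. Of these 51 genes, 49 had a probe in the platform annotation (101 probes), Cdk1 among them, whose older name is Cdc2a. No probe carried the symbol Ccnb1 or Mki67. RNA came from Sertoli cells, the somatic cells that nurse germ cells in the seminiferous tubule, sorted by fluorescence of a Sox9-GFP reporter from mice 6 weeks old on a mixed C57B6J/129SvEv background. The Rb cKO group was Rb1 flox/-; Amh-Cre + and the Control group was Rb1 flox/-, with 3 Illumina bead arrays each, numbered 1 to 3 in both groups. Both groups therefore lack 1 germline copy of Rb1, the retinoblastoma gene, and Control cells keep the floxed copy. The Amh promoter drives Cre in Sertoli cells, and no Control carried Cre, so effects of Cre and of Rb1 loss cannot be told apart. The comparison asks how Rb1 loss alters transcript levels in these cells. Whether the arrays of a group hold separate animals is not in the labels, so the p-values measure no more than the spread over these arrays, and that spread may be technical.

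In dividing cells, Cdk1 bound to A and B cyclins drives entry into mitosis, and Cdc25 phosphatases switch it on. Aurora and Polo-like kinases, kinesins and condensins then build the spindle and compact the chromosomes, the spindle checkpoint holds anaphase until every chromosome is attached, and cytokinesis splits the cell. Most of these genes are transcribed in G2, under repression by the DREAM complex in resting cells and activation by MYBL2 and FOXM1 in cycling ones, and Rb acts upstream through E2F factors. Adult Sertoli cells are a classical postmitotic cell type, whereas spermatogonia divide and spermatocytes pass through the meiotic divisions in the same tubule.

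On each array a mean intensity of each probe was read, which was corrected for background, quantile-normalised and put on a log2 scale. A probe was tested if detected on at least 3 of the 6 arrays, whatever their group. That left 38 of the 51 genes, by 62 probes, and 35 of the 38 were detected on all 6 arrays by their brightest tested probe. Detected member probes numbered 57, 61 and 64 of 101 on Rb cKO arrays 1 to 3, against 61, 57 and 67 on Control arrays 1 to 3. Every probe of 10 members lay below detection on all 6 arrays: Ccna2 and Ccnb2, A and B cyclins; Cks1b and Cks2, small Cdk1-binding proteins; Nek2, a centrosome kinase; Bub1, a checkpoint kinase; Ube2c, a ubiquitin-conjugating enzyme of the anaphase-promoting complex; Hmmr, a spindle protein; Kif20a, a kinesin of the central spindle; and Racgap1, a central spindle protein needed for cytokinesis. Ect2, which is needed for cytokinesis as well, was detected on 1 array. For these 11 genes there is only an upper limit, and no difference of a single gene is given.

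The arrays of Rb cKO 1 and Control 3 stood apart. Along the first principal component of the tested probes, with 58.9% of their variance, they scored -113.8 and 110.3, and the other 4 arrays between -34.3 and 31.4. Between 43.0% and 53.5% of all probes were detected per array, with medians of 43 to 44 beads per probe. Rb1, the targeted gene, was at 10.37, 9.92 and 9.35 on Rb cKO arrays 1 to 3, against 10.53, 11.07 and 10.98 on Control arrays 1 to 3, by its brighter probe (log2 values). The arrays did not overlap, at a difference of -0.98 ± 0.34 (SE; adjusted p = 0.668), and the other Rb1 probe differed by -1.23 ± 0.32 (adjusted p = 0.403). Neither passed the threshold, and whether either probe lies inside the deleted stretch is not known here. Sertoli markers were present: 12 of 16 listed markers had a probe, and all 12 were detected on at least 1 array. Transcripts of haploid germ cells were bright as well, with spermatid markers summing to 103718 to 132815 intensity units on Rb cKO arrays, against 94190 to 122514 on Control arrays.

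G2 and mitosis genes lay higher in Rb cKO than in Control as a list, by a median of 0.72 log2 units over the 38 tested genes, against a median of 0.12 over all 12277 genes tested. Each gene was read by its brightest tested probe. Of the 38, 35 had a positive difference and 3 a negative one, where 61.3% of all genes were positive. No member probe passed an adjusted p under 0.05 in limma, in either direction, where 0.128% of all 21805 tested probes did, all of them higher in Rb cKO. The smallest adjusted p of a member probe was 0.256, for a probe of the condensin gene Ncaph. At an unadjusted p under 0.05, 11 of 38 members were higher (background 5.95%) and 0 were lower (background 1.85%). By probe, these were 15 of 62 (background 4.61%) and 0 of 62 (background 1.76%). The 3 Rb cKO arrays all lay above the 3 Control arrays for 13 members (background 9.56%) and all below them for 0 (background 4.33%), and by probe for 18 of 62 (background 8.04%) and 0 of 62 (background 4.01%). The 13 and the 18 include Cdc25b, which passed the filter through Rb cKO alone. Over the 49 genes with a probe, tested or not, the median was 0.56, with 40 positive and 9 negative. All 19057 genes, read in that way, had a median of 0.039, with 59.6% positive. The median of 0.56 and its signs include the 11 untested genes, which have only an upper limit, so their part is not a measured difference.

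**Figure D1:**
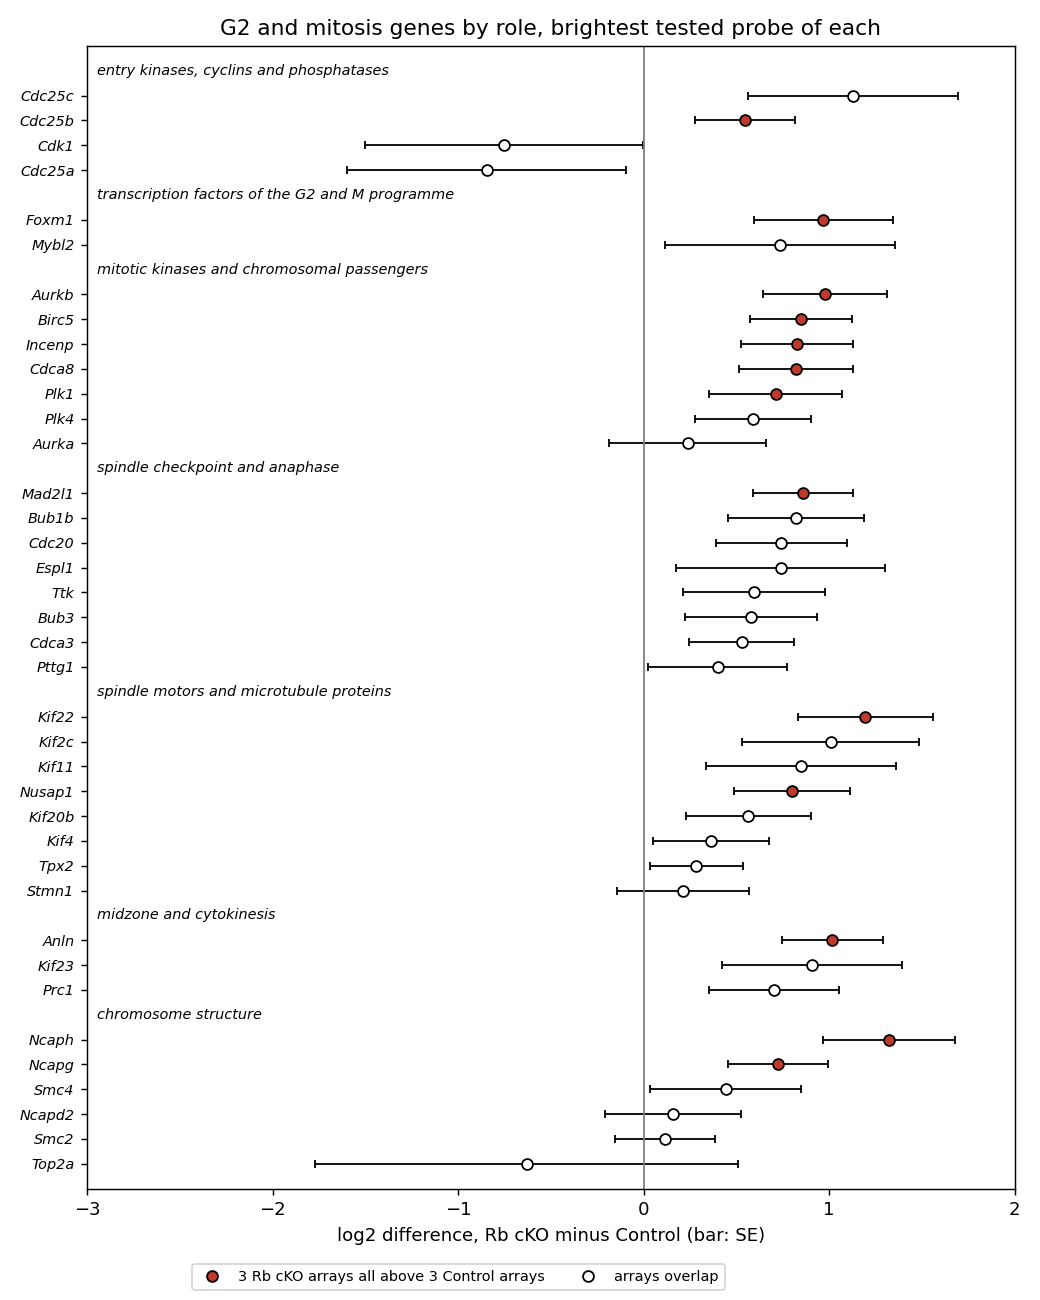
Difference of each of the 38 tested genes between Rb cKO and Control on the log2 scale, by the brightest tested probe, grouped by role; bars are SE (n = 3 arrays a group) and filled points mark genes whose arrays did not overlap. All members of 5 of the 7 roles lie right of 0, and Cdk1, Cdc25a and Top2a lie left of it with wide bars.

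The size of this difference depended on single arrays. Without Rb cKO 1 and Control 3 the median was 0.41 against -0.03 for all genes, 33 of 38 members stayed positive, and 5 had an unadjusted p under 0.05 (background 3.40%). The remaining arrays did not overlap in 17 members as higher (background 13.2%). The number at an unadjusted p under 0.05 was 7 without Rb cKO 1 (background 3.87%), 6 without Rb cKO 2 (4.28%) and 10 without Rb cKO 3 (6.20%). It was 18 without Control 1 (11.5%), 5 without Control 2 (4.90%) and 5 without Control 3 (3.67%), so that the background moved as well. With the replicate number as a block it was 20 (background 11.0%), and no member probe was called, with a smallest adjusted p of 0.150. In bulk RNA a change in the share of cells of one type and a change in RNA per cell cannot be told apart.

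Many promoters of these genes hold the hexamer TTTGAA, the core of the cell cycle genes homology region that the DREAM and MuvB complexes read, and CCAAT boxes, which NF-Y binds. The windows run from 250 bases before to 50 after each RefSeq start (GRCm38.p6), where base 1 is the first transcribed one, and 42 of the 51 genes had a window. TTTGAA or its reverse complement TTCAAA was found in 29 of these 42 genes (69.0%), against 20.2% of 27025 genes with a window. CCAAT or ATTGG was found in 32 (76.2%, against 41.1%) and GGCGG or CCGCC in 37 (88.1%, against 51.2%). TTTAAA, which reads the same on both strands, was found in 6 (14.3%, against 14.9%). Forms of the E2F site were found in few members: TTTGGCGC or GCGCCAAA in 2 (4.76%, against 0.585%), TTTCGCGC or GCGCGAAA in 1 (2.38%, against 0.374%) and TTTCCCGC or GCGGGAAA in 1 (2.38%, against 1.24%). The member windows had a median G and C content of 59.0%, against 52.7% over all windows. Such a match is a run of letters and was not shown to be a binding site.

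The 6 promoters below come from 6 roles and belong, in each role, to the member with the smallest p among those with TTTGAA. They are shown because the motif that these genes share can be read in them, with TTTGAA and CCAAT, on either strand, in capitals.
Anln: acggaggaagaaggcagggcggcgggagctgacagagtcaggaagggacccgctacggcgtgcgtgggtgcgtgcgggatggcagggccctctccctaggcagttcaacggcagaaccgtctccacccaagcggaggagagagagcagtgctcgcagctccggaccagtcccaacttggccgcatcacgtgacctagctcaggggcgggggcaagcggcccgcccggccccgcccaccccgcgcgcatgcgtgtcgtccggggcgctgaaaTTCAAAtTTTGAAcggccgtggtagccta
Kif22: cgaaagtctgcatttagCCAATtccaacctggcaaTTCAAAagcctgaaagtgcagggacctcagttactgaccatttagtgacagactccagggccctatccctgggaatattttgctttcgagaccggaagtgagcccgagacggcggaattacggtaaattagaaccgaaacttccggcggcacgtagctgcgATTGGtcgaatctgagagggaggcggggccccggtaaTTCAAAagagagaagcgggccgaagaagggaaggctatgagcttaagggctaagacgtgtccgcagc
Ncapg: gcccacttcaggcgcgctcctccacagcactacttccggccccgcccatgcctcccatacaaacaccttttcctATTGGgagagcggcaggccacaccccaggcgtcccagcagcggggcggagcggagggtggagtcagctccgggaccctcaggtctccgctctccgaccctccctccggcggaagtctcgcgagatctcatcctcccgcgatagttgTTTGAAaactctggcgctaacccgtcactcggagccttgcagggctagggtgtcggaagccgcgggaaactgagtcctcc
Cdca8: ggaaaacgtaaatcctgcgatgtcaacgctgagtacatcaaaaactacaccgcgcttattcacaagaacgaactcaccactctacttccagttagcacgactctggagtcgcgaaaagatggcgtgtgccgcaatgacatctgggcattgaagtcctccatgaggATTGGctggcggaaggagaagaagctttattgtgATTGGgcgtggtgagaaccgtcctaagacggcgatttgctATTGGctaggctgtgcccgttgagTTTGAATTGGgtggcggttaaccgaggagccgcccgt
Bub1b: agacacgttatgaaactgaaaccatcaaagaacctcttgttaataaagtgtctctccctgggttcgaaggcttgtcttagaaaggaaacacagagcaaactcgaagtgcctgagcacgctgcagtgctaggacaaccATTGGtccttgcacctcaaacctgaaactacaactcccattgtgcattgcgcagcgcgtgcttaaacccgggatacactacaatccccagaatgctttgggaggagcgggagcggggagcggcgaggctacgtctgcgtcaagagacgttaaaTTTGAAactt
Cdk1: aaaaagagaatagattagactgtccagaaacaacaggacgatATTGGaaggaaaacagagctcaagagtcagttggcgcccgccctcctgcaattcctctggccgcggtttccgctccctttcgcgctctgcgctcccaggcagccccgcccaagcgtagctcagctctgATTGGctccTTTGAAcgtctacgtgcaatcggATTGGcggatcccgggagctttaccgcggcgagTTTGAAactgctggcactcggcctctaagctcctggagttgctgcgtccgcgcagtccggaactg
The windows are chr9:22389157-22389456, minus strand for Anln, chr7:127042371-127042670, minus strand for Kif22, chr5:45669675-45669974, plus strand for Ncapg, chr4:124936868-124937167, minus strand for Cdca8, chr2:118597961-118598260, plus strand for Bub1b and chr10:69352863-69353162, minus strand for Cdk1 (GRCm38.p6). In Ncapg the motif lies 30 to 25 bases before the start, and in Cdk1 one copy lies 15 to 10 bases before it and another 71 to 66 bases before it. Kif22 has a copy 17 to 12 bases before the start, on the other strand. Anln has copies in opposite orientation at bases 22 to 27 and 29 to 34, Bub1b has one at bases 41 to 46, and Cdca8 has one at bases 14 to 19 whose last base is shared with an ATTGG. The median difference was 0.71 over 22 tested genes that have TTTGAA and 0.73 over 9 that lack it, and this contrast was not tested.

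Among the kinase that starts mitosis, its cyclins and its activating phosphatases, no common direction was seen. Of 9 genes 4 were tested, 2 with a positive and 2 with a negative difference, and their median was -0.10 with a mean of 0.02. Without the 2 arrays that stood apart, all 4 were positive, with a median of 0.26, where 46.3% of all genes were positive. Cdk1, the catalytic subunit, was at 7.54, 9.49 and 10.59 on Rb cKO arrays 1 to 3, against 9.67, 9.53 and 10.67 on Control arrays 1 to 3. The groups overlapped, Rb cKO array 1 lay far below the other 5 arrays, and the difference was -0.75 ± 0.75 (SE; adjusted p = 0.784). A second, dimmer Cdk1 probe gave 0.20, and the sign of the brighter one turned to 0.08 without Rb cKO 1. Its promoter, printed above, holds 2 copies of TTTGAA, as do those of Anln and Kif22.

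The Cdc25 phosphatases remove the inhibitory phosphates from Cdk1. Cdc25c, which acts at the G2 to M step, was at 8.57, 8.02 and 7.25 on Rb cKO arrays 1 to 3, against 7.47, 7.35 and 5.64 on Control arrays 1 to 3. Only Control 3 lay far below the others, the groups overlapped, and the difference was 1.13 ± 0.57 (SE), or 0.23 without the 2 arrays that stood apart. A second probe gave 1.31, with no overlap. Cdc25a, which acts also at the G1 to S step, was at 7.65, 7.42 and 7.36 on Rb cKO arrays 1 to 3, against 7.26, 7.47 and 10.25 on Control arrays 1 to 3. Control 3 alone was high, so that the difference of -0.85 ± 0.75 came with a sign that turned to 0.12 without that array. Cdc25b, the phosphatase linked to centrosomes, was detected on all 3 Rb cKO arrays and was not well above background on any Control array, at 5.83, 5.38 and 5.23 on Rb cKO arrays 1 to 3, against 4.98, 5.04 and 4.79 on Control arrays 1 to 3. Each Control array was counted at its own value or at the dimmest detected probe, whichever is higher. So counted, the Cdc25b mean was 1.37-fold higher in Rb cKO, a value that holds for the main processing only. It compares means over these arrays and takes no account of their spread. The measured difference was 0.54 ± 0.27 (SE; adjusted p = 0.766). It was 0.33 without background correction and 0.29 without the 2 arrays that stood apart. A second probe, detected on 1 array and not tested, gave 0.22. Since Cdc25b passed the filter through Rb cKO alone, its lack of overlap and the 1.37-fold value support nothing.

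Both transcription factors of the programme lay higher on average. Foxm1, the forkhead factor that activates late mitotic genes, was at 9.84, 9.56 and 9.41 on Rb cKO arrays 1 to 3, against 9.29, 8.66 and 7.97 on Control arrays 1 to 3. The arrays did not overlap, with means of 9.61 ± 0.22 in Rb cKO and 8.64 ± 0.66 in Control (SD, n = 3 each) and a difference of 0.97 ± 0.38 (SE; adjusted p = 0.734). Its second probe gave 1.14 ± 0.45, also without overlap, and the brighter probe gave 0.51 without the 2 arrays that stood apart. Mybl2, the MYB protein that joins the MuvB core, was at 8.64, 8.09 and 6.69 on Rb cKO arrays 1 to 3, against 7.43, 7.75 and 6.05 on Control arrays 1 to 3. The groups overlapped, each Rb cKO array lay above the Control array of its own number, the difference was 0.73 ± 0.62 (adjusted p = 0.769), and the sign turned to -0.20 without the 2 arrays that stood apart, which leaves 1 complete pair.

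All 4 genes of the chromosomal passenger complex on the list had separate groups by their brightest probes, all higher in Rb cKO (background 9.56%). This complex corrects faulty attachments of chromosomes to the spindle and later marks the cleavage plane. These 4 genes were not set as a group beforehand. They belong to the role of mitotic kinases and chromosomal passengers, in which 5 of 7 tested genes separated as higher. Aurkb, its kinase, was at 7.51, 8.01 and 7.95 on Rb cKO arrays 1 to 3, against 7.17, 7.10 and 6.25 on Control arrays 1 to 3. Birc5, the subunit that docks on chromatin and is also named survivin, was at 10.07, 9.75 and 9.95 on Rb cKO arrays 1 to 3, against 9.45, 8.86 and 8.91 on Control arrays 1 to 3. Incenp, the scaffold, was at 9.05, 8.89 and 9.10 on Rb cKO arrays 1 to 3, against 8.60, 8.28 and 7.70 on Control arrays 1 to 3. For each of these 3 genes every Rb cKO array lay above every Control array. The differences were 0.98 ± 0.34, adjusted p = 0.664, for Aurkb, 0.85 ± 0.28, adjusted p = 0.614, for Birc5, and 0.83 ± 0.30, adjusted p = 0.707, for Incenp (SE). Cdca8, or borealin, differed by 0.82 without overlap. Its second tested probe, detected on 3 of 6 arrays and high on Control 3, gave -0.68, and the other Birc5 probes gave 0.32 and 0.03. Each of these further probes overlapped between groups.

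Among the other mitotic kinases, Plk1, which acts from mitotic entry to cytokinesis, differed by 0.71 without overlap, and Plk4, which starts centriole duplication, by 0.59 with overlap. Aurka, the kinase of spindle poles, differed by 0.24, less than its SE of 0.42. Among these kinases and passengers, 7 of 8 genes were tested, 7 were positive, their median was 0.82, and 4 had an unadjusted p under 0.05 (background 5.95%).

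All 8 tested genes of the spindle checkpoint and of anaphase had a positive difference, from 0.40 to 0.86, where 61.3% of all genes were positive, and 1 of the 8 had an unadjusted p under 0.05 (background 5.95%). That gene was Mad2l1, the checkpoint protein that sequesters Cdc20, at 10.05, 9.74 and 9.60 on Rb cKO arrays 1 to 3, against 9.13, 8.66 and 9.03 on Control arrays 1 to 3. The groups did not overlap, with means of 9.80 ± 0.23 in Rb cKO and 8.94 ± 0.25 in Control (SD, n = 3 each), and the difference of 0.86 ± 0.27 (SE; adjusted p = 0.579) was 0.94 by the second probe and 0.78 without the 2 arrays that stood apart. Bub1b, the pseudokinase BubR1 of the same checkpoint complex, was at 10.39, 10.04 and 10.26 on Rb cKO arrays 1 to 3, against 10.09, 9.35 and 8.79 on Control arrays 1 to 3. Control 1 lay within the Rb cKO range, and the difference was 0.82 ± 0.37.

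Cdc20, the activator of the anaphase-promoting complex, was measured by 4 tested probes. The brightest was at 12.15, 11.28 and 11.53 on Rb cKO arrays 1 to 3, against 11.43, 10.58 and 10.73 on Control arrays 1 to 3, a difference of 0.74 ± 0.35 with overlap. The others gave 0.76, 0.36 and -0.93, the last from a dim probe that was high on Control 3 alone. Espl1, or separase, which cuts cohesin, differed by 0.74, and Pttg1, its inhibitor securin, by 0.40. Ttk, the kinase Mps1 that turns the checkpoint on, differed by 0.59, Bub3, which carries checkpoint proteins to kinetochores, by 0.58, and Cdca3, a trigger of mitotic entry, by 0.53, or 1.07 by its second probe. All 5 overlapped between groups.

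Kinesins and microtubule proteins of the spindle were positive in all 8 tested genes of 9, with a median of 0.68. Kif22, a chromokinesin that pushes chromosome arms outward, was at 10.22, 9.59 and 9.28 on Rb cKO arrays 1 to 3, against 8.95, 8.51 and 8.04 on Control arrays 1 to 3. It separated the groups at 1.20 ± 0.36 (SE; adjusted p = 0.554), a 2.29-fold higher mean, and gave 0.70 without the 2 arrays that stood apart. Nusap1, a microtubule bundler near chromosomes, was at 11.22, 10.68 and 10.50 on Rb cKO arrays 1 to 3, against 10.38, 9.73 and 9.88 on Control arrays 1 to 3. The arrays did not overlap for it either, at 0.80 ± 0.31 (adjusted p = 0.734), and its second probe gave 0.41. Kif2c, or MCAK, a kinesin that takes microtubules apart, was at 9.99, 9.69 and 9.21 on Rb cKO arrays 1 to 3, against 9.48, 8.70 and 7.69 on Control arrays 1 to 3. Its groups overlapped through Control 1, with a difference of 1.01 ± 0.48.

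The other spindle genes differed less or more variably. Kif11, the Eg5 motor that separates spindle poles, differed by 0.85 ± 0.51, Kif20b by 0.56, and Kif4, a chromokinesin, by 0.36, with its other probes at -0.61 and -0.35. Tpx2, the activator of Aurora A on the spindle, differed by 0.28 ± 0.25, and Stmn1, which sequesters tubulin, by 0.21 ± 0.36. None of these 5 separated the groups.

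Of 6 midzone and cytokinesis genes, 3 were tested, each was positive, and their median was 0.91. Anln, or anillin, the scaffold of the contractile ring, was at 10.11, 9.80 and 10.17 on Rb cKO arrays 1 to 3, against 9.35, 8.88 and 8.81 on Control arrays 1 to 3. Every Rb cKO array lay above every Control array, with means of 10.03 ± 0.20 in Rb cKO and 9.01 ± 0.29 in Control (SD, n = 3 each), and the difference was 1.02 ± 0.27 (SE; adjusted p = 0.414), or 0.88 without the 2 arrays that stood apart. Prc1, which bundles antiparallel microtubules, was at 12.56, 12.14 and 12.21 on Rb cKO arrays 1 to 3, against 12.27, 11.28 and 11.24 on Control arrays 1 to 3. Control 1 lay among the Rb cKO arrays, and the difference was 0.70 ± 0.35. Kif23, the midzone kinesin MKLP1, was at 9.63, 10.49 and 10.45 on Rb cKO arrays 1 to 3, against 8.64, 10.28 and 8.93 on Control arrays 1 to 3. Control 2 lay within the Rb cKO range here, the difference was 0.91 ± 0.48, and the other tested probes gave 0.55 and -0.90.

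Among genes of chromosome structure, the condensin I subunits Ncaph and Ncapg separated the groups by their brightest probes. The condensin I subunit Ncapd2 and the SMC subunits did not. Ncaph, the kleisin that closes the condensin I ring, was at 10.07, 9.70 and 9.43 on Rb cKO arrays 1 to 3, against 8.95, 8.42 and 7.85 on Control arrays 1 to 3. Its groups did not overlap, with means of 9.73 ± 0.32 in Rb cKO and 8.41 ± 0.55 in Control (SD, n = 3 each), and its difference of 1.32 ± 0.35 (SE; adjusted p = 0.414), a 2.50-fold higher mean, was the largest of the 38 brightest probes. The second Ncaph probe, at 9.51, 9.09 and 8.92 on Rb cKO arrays 1 to 3, against 8.13, 7.81 and 7.32 on Control arrays 1 to 3, gave 1.42 ± 0.31 with an adjusted p of 0.256. Ncapg, a HEAT-repeat subunit of condensin I, was at 6.44, 6.20 and 5.92 on Rb cKO arrays 1 to 3, against 5.63, 5.54 and 5.22 on Control arrays 1 to 3. It differed by 0.72 ± 0.27 without overlap, and its second tested probe by 0.53 with overlap.

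Ncapd2, the other HEAT-repeat subunit of condensin I, differed by 0.16, with its other probes at 0.22 and 0.11. Smc4, an ATPase shared by both condensins, was at 7.31, 6.78 and 6.24 on Rb cKO arrays 1 to 3, against 6.30, 6.93 and 5.77 on Control arrays 1 to 3. The groups overlapped, at 0.44 ± 0.41, a second probe gave -0.32, and the sign of the brighter one turned to -0.11 without the 2 arrays that stood apart. Smc2, its partner, differed by 0.11 ± 0.27. Contrasts between these condensin genes were not tested.

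Top2a, the topoisomerase that untangles sister chromatids, gave opposite values by its 2 tested probes. The brighter was at 5.03, 8.03 and 10.03 on Rb cKO arrays 1 to 3, against 8.99, 7.56 and 8.43 on Control arrays 1 to 3. Rb cKO array 1, where this probe was not detected, was the lowest of the 6 and Rb cKO array 3 the highest, and the difference was -0.63 ± 1.14. The dimmer probe was at 7.29, 6.55 and 5.95 on Rb cKO arrays 1 to 3, against 5.64, 5.33 and 5.48 on Control arrays 1 to 3. These groups did not overlap, at a difference of 1.11 ± 0.37 (adjusted p = 0.642). The sign of the brighter probe turned to 0.70 without Rb cKO 1.

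**Figure D2:**
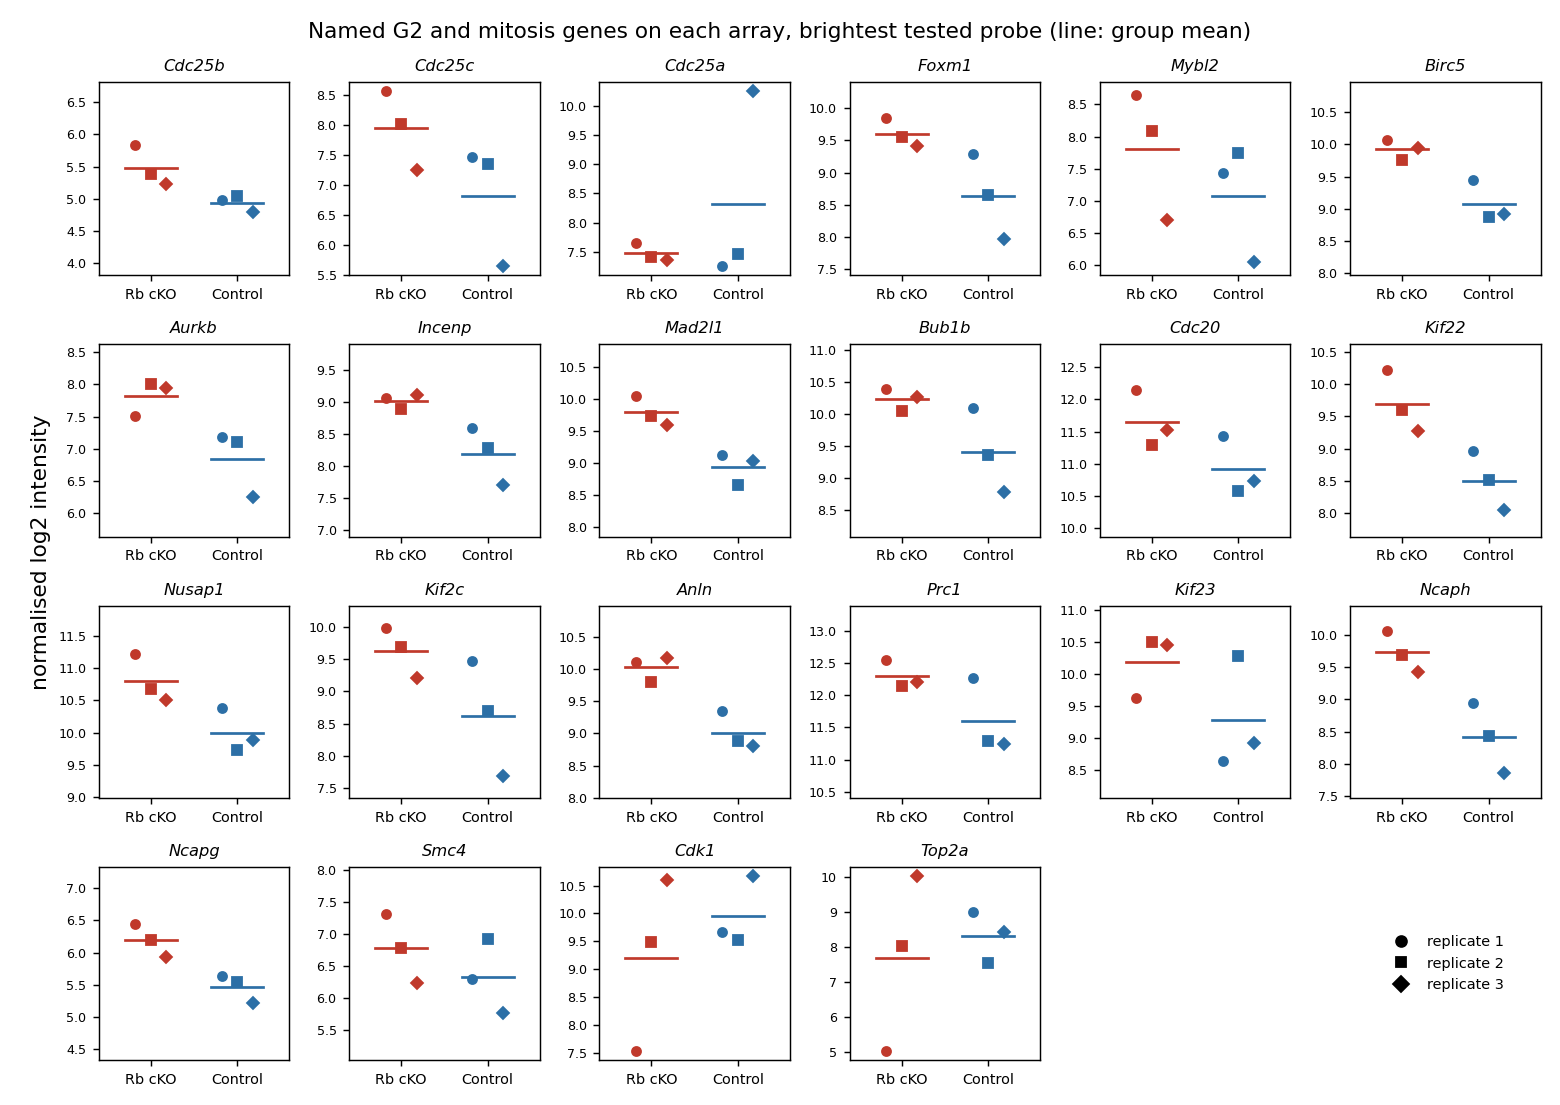
Normalised log2 intensity of 22 named genes on each of the 6 arrays, by the brightest tested probe; symbols mark the replicate number and lines the group means (n = 3). Each panel has its own axis. Anln, Ncaph, Kif22 and Mad2l1 show separate groups, Control 3 sits alone for Cdc25a, and Rb cKO 1 sits far below the other arrays for Cdk1 and Top2a.

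Probes of one gene disagreed in sign for 8 of the 18 members with more than 1 tested probe: Cdc20, Cdc25a, Cdca8, Cdk1, Kif23, Kif4, Smc4 and Top2a. The other 10, among them Ncaph, Foxm1, Mad2l1 and Bub1b, had the same sign by all tested probes. Where the probes lie in the transcripts was not determined here, so which probe reports the mature transcript cannot be said. Of all 62 tested member probes, 53 were positive and 9 negative, and 57.0% of all tested probes were positive.

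**Figure D3:**
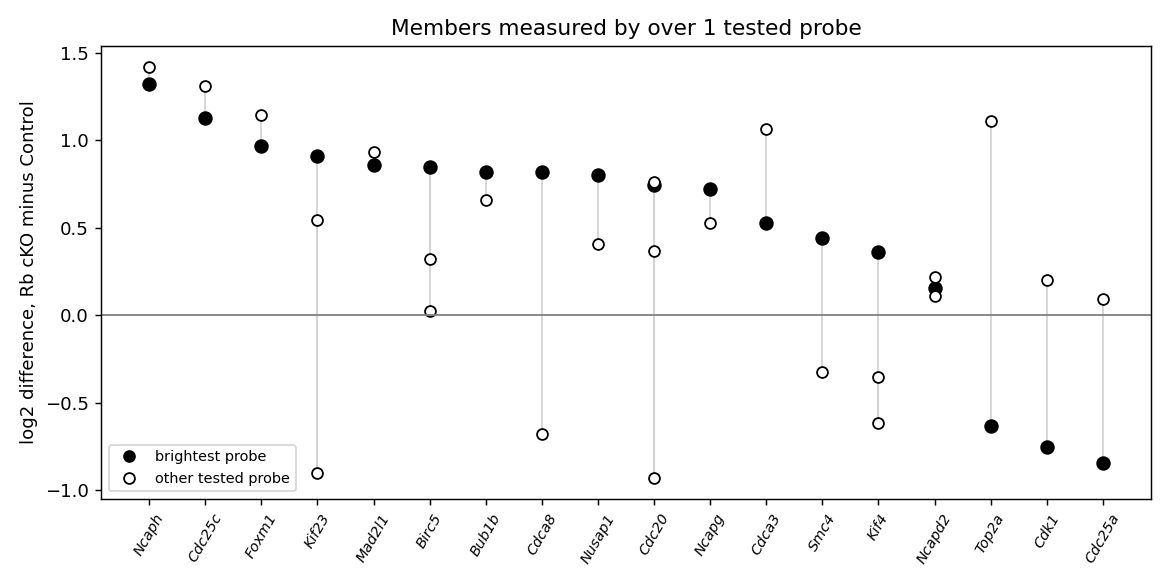
Differences between Rb cKO and Control (log2, vertical axis) for the 18 members with more than 1 tested probe; filled points are the brightest probe and open points the others. Probes of Ncaph, Foxm1 and Mad2l1 lie close together above 0, while those of Kif23, Cdc20, Cdca8 and Top2a lie on both sides of it.

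Seen over single arrays, the mean level of the 38 genes relative to the Control mean was 0.64, 0.57 and 0.54 on Rb cKO arrays 1 to 3, against 0.29, -0.001 and -0.29 on Control arrays 1 to 3. The groups did not overlap, and the Control arrays spread more widely than the Rb cKO arrays. All genes tested had means of 0.16, 0.13 and 0.05 on Rb cKO arrays, against 0.09, 0.08 and -0.18 on Control arrays, with Control 3 lowest there too. Rb cKO 1 held the highest value for 54.8% of tested member probes, against 35.9% of all tested probes. Control 3 held the lowest value for 54.8% of them, against 41.4% of all.

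Markers of germ cells and of other cells of the testis had positive medians as well. For spermatogonia, the dividing germ cells, 10 of 14 markers were tested, with a median difference of 0.67, and their mean was 0.89, 0.40 and 0.53 on Rb cKO arrays, against 0.10, 0.11 and -0.20 on Control arrays. Their summed intensity was 5309 to 6367 in Rb cKO and 4343 to 4999 in Control, with Zbtb16, Nanos2 and Nanos3 not detected on any array. For spermatocytes, 12 of 16 markers were tested, with a median of 0.48 and a summed intensity of 77228 to 91474 in Rb cKO and 59693 to 85107 in Control, and Sycp3, Dmc1, Hormad1 and Mael were not detected. Spermatid markers (11 of 12 tested) had a median of 0.43. Peritubular myoid markers (6 of 8), Leydig markers (4 of 7), endothelial markers (8 of 11) and leukocyte markers (9 of 15) had medians of 0.84, 1.43, 1.16 and 0.68. Their summed intensities were 7320 to 11996 in Rb cKO and 4838 to 5613 in Control for peritubular myoid cells, where Tagln and Cnn1 were not detected, and 2286 to 8525 in Rb cKO and 1163 to 2940 in Control for Leydig cells, without Hsd3b1. They were 1567 to 4180 in Rb cKO and 413 to 669 in Control for endothelium, where Kdr was not detected, and 8324 to 8631 in Rb cKO and 6880 to 9953 in Control for leukocytes, without Ptprc and Itgam. Sums of spermatogonial, endothelial and peritubular markers thus did not overlap between groups. Those of spermatocyte, spermatid, Leydig and leukocyte markers did. Sertoli markers (11 of 16) lay lower, with a median of -0.45 and 11 of 11 negative, a summed intensity of 38535 to 42482 in Rb cKO and 42039 to 49381 in Control, and a mean of -1.32, -0.47 and -0.10 on Rb cKO arrays, against -0.11, 0.14 and -0.03 on Control arrays. Without the 2 arrays that stood apart, the medians were 0.36 for spermatogonia, 0.18 for spermatocytes, 0.58 for peritubular myoid cells, 1.37 for Leydig cells, 0.57 for endothelium, 0.35 for leukocytes and -0.26 for Sertoli cells, beside 0.41 for the G2 and mitosis genes. The part of these other cells in the difference of G2 and mitosis genes was not tested.

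**Figure D4:**
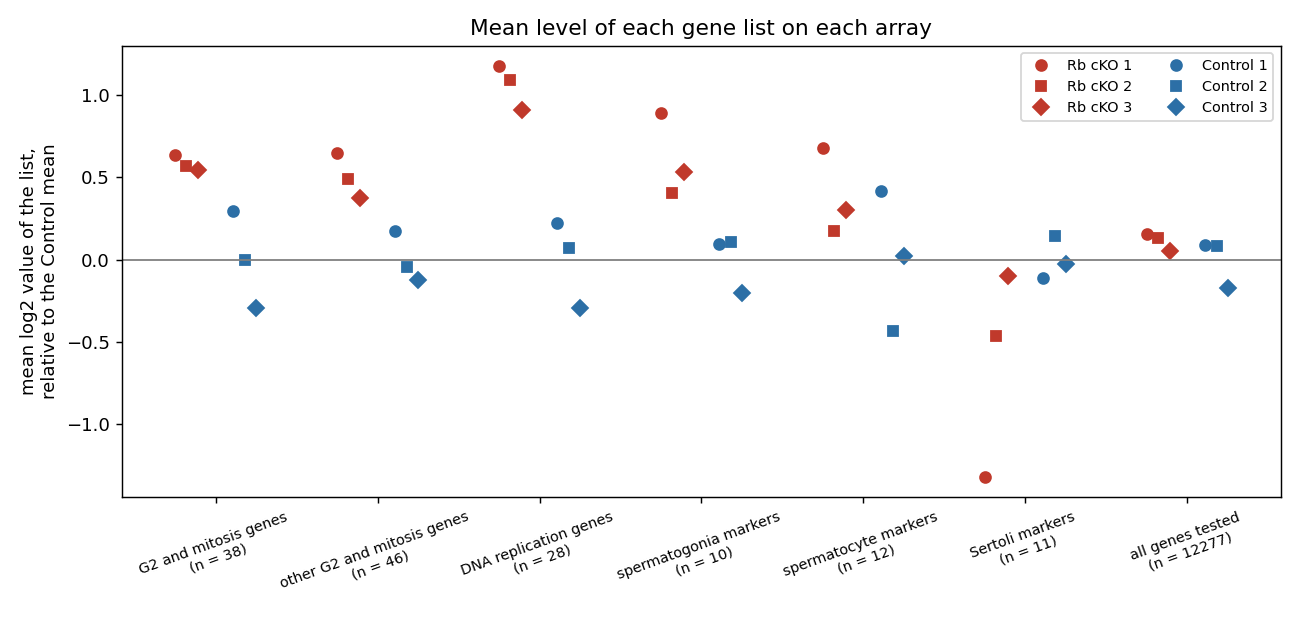
Mean log2 level of 7 gene lists on each array, relative to the mean of the 3 Control arrays (vertical axis); n is the number of tested genes in a list. G2 and mitosis genes lie between 0.54 and 0.64 on Rb cKO arrays, DNA replication genes between 0.91 and 1.17, and Sertoli markers at or below -0.10.

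A further list of 57 genes of G2 and mitosis, outside the 51, was read in the same way. Of these, 46 were tested, 35 had a positive difference (background 61.3%) and 11 a negative one, and their median was 0.52. Differences ran from -1.16 for Hmgb2 to 1.64 for Melk. Psrc1, Sgo1, Melk, Dlgap5 and Gtse1, described below, had the smallest p of the 46. No gene passed an adjusted p under 0.05 in limma. At an unadjusted p under 0.05, 12 were higher (background 5.95%) and 0 were lower (1.85%). The groups were separated as higher in 14 (9.56%), and Psrc1 is among both the 12 and the 14. Psrc1, a spindle protein, was detected on no Control array and was at 6.62, 6.22 and 5.87 on Rb cKO arrays 1 to 3, against 4.70, 4.84 and 4.63 on Control arrays 1 to 3. Counted as for Cdc25b, the Psrc1 mean was 2.30-fold higher in Rb cKO under the main processing. The measured difference was 1.51 ± 0.28 (SE; adjusted p = 0.154 in limma), or 1.27 without the 2 arrays that stood apart. Psrc1 passed the filter through Rb cKO alone, so the 2.30-fold value, its lack of overlap and its place among the 12 support nothing. Sgo1, or shugoshin, which protects centromeric cohesin, was at 7.35, 6.87 and 6.43 on Rb cKO arrays 1 to 3, against 5.92, 5.41 and 4.97 on Control arrays 1 to 3, a difference of 1.45 ± 0.36 without overlap. Melk, a kinase of proliferating cells, was at 7.56, 6.75 and 5.95 on Rb cKO arrays 1 to 3, against 5.65, 4.86 and 4.82 on Control arrays 1 to 3. The groups did not overlap, and the differences were 1.64 ± 0.46 and 1.64 by its 2 probes. Both Melk probes were detected on 5 arrays only, and the brighter gave 1.09 without the 2 arrays that stood apart. Gtse1, a microtubule-binding protein, was at 10.13, 9.38 and 8.76 on Rb cKO arrays 1 to 3, against 8.71, 7.55 and 7.32 on Control arrays 1 to 3. Dlgap5, or HURP, a spindle protein, was at 6.56, 6.30 and 6.42 on Rb cKO arrays 1 to 3, against 5.73, 5.74 and 5.44 on Control arrays 1 to 3. Neither overlapped between groups. Gtse1 differed by 1.57 ± 0.49 and by 0.97 by a second probe, and Dlgap5 by 0.79 ± 0.25 and by -0.10.

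Genes of DNA replication, which act in S phase before these, had a larger median on the same arrays: 1.01 over 28 of 32 listed genes, all 28 positive (background 61.3%). By the brightest probes, 1 of the 28 was past an adjusted p under 0.05, as were 22 of all 12277 genes, and 20 were higher at an unadjusted p under 0.05 (background 5.95%). Their mean level was 1.17, 1.09 and 0.91 on Rb cKO arrays, against 0.22, 0.07 and -0.30 on Control arrays. Without the 2 arrays that stood apart, the median was 0.73 for replication genes and 0.41 for G2 and mitosis genes. The difference between the lists was not tested.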

How the data were processed

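RNA of sorted Sertoli cells was hybridised to 6 Illumina arrays, 3 of Rb cKO and 3 of Control, grouped by their titles. Per the file headers, the deposited scanner tables give a linear mean intensity per probe, the intensity spread between beads, other values such as the bead number, and a detection score, a fraction from 0 to 1. The software, per the submitters' processing notes, was BeadStudio. In the deposited series table the authors give log2 values: each array's 75th percentile was subtracted from the log2 intensities, and every probe was then centred at its median over the arrays, which holds to 0.00040. Probe numbers were joined to probe IDs by this formula for all 45281 entries, the nearest second probe being 0.0028 away. The platform annotation gave 1 symbol for 34885 probes.

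Intensities were background-corrected (normexp, parameters from the detection scores, offset 16) and quantile-normalised in limma 3.58.1 (R 4.3.3). A score over 0.95 counted as detection, and 21805 probes detected on at least 3 arrays were tested with lmFit and eBayes, two-sided, group as the only term, with Benjamini-Hochberg adjustment over all tested probes. Precision is limited by the number of arrays. Replicate numbers were taken as pairs, because deviations of same-numbered arrays from their group means correlated at 0.261, 0.411 and 0.473, each over 0.1, although Rb cKO 1 correlated best with Control 2; the labels do not say what a number stands for, and the block is an alternative. The alternatives were another background correction, scaling, detection filter and probe choice, the deposited log2 values, array weights, and arrays left out. Members, lists and rules were chosen with earlier results of these data known, and the DNA replication list was added last. Values on all arrays are given for the 3 members of each role with the smallest p by the brightest tested probe. They are also given for Cdk1, Top2a, Foxm1 and Rb1, and for the 5 genes of the further list with the smallest p. Other genes named singly were chosen after their values were seen.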

Additional observations from a re-analysis of the deposited data

How the results depend on the processing

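No member probe was called under any of the 16 alternatives, each of which changed 1 choice or left out 1 or 2 arrays, while over all tested probes limma called between 0 and 145 as higher, the most with array weights, where 2 were lower. With the replicate block it called 0, and 1971 probes were higher at an unadjusted p under 0.05, with 1284 lower. The smallest adjusted p of a member probe was 0.0681, with array weights. The median difference stayed positive throughout, from 0.41 to 0.86. It was 0.41 without Rb cKO 1 and Control 3, and from 0.50 to 0.86 with single arrays left out; the median of all genes ran from -0.03 to 0.20 over the same settings, and was 0.20 under median scaling and 0.15 with the deposited log2 values, where the members were at 0.74 and 0.67. The further list had a median of 0.32 without Rb cKO 1 and Control 3. Members at an unadjusted p under 0.05 numbered 20 with the replicate block, 5 without Rb cKO 1 and Control 3, and from 5 to 18 with single arrays left out, where fewer samples enter the fit. Members with separated arrays, in either direction, numbered 9 with the deposited log2 values and 10 under median scaling, where 9.69% and 13.2% of all genes were separated. With single arrays left out they numbered from 13 to 24, where 18.3% to 38.6% of all genes were separated. The 24 and the 38.6% came without Control 1. Without Rb cKO 3, 19 members were separated as higher and 1 as lower. Of 367 values of 23 named genes, 358 kept their sign and none crossed the threshold. Some of these values could not turn. The replicate block, the fit without a detection filter and the fit of 1 probe per gene return the main difference for every named gene. Detection on all 6 arrays does so too for the genes it keeps, except Top2a. The 9 that turned were Top2a at 1.11 with detection on all 6 arrays, where another probe is used, at 0.70 without Rb cKO 1 and at 0.75 without both arrays; Cdk1 at 0.083 without Rb cKO 1 and at 0.44 without both; Cdc25a at 0.12 without Control 3 and at 0.032 without both; and Mybl2 at -0.20 and Smc4 at -0.11 without both. With single arrays left out, the lowest values were -1.45 for Cdk1, -1.80 for Top2a and -1.38 for Cdc25a. Beyond the change of probe, the cause was not tested. Signal over background limits 11 members, which have no tested probe.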
